A study of Mus musculus with 20 samples.

Results

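The 10 genes described here encode the enzymes that methylate the cap of mRNAs and small nuclear RNAs and the proteins that bind it: *Rnmt*, *Cmtr1*, *Cmtr2*, *Pcif1*, *Tgs1*, *Ncbp1*, *Snupn*, *Eif4e*, *Eif4e2* and *Eif4e3*. They were picked by name and found by matching the Ensembl identifiers of the count table to GENCODE M21, in which each symbol had 1 identifier. The table lists 21780 genes, and all 10 were among the 15522 genes with at least 10 counts over all libraries, which were the genes tested. Liver polyadenylated RNA came from male C57Bl/6J mice, 8 weeks old at the start, that all ate a high-fat diet (HFD) with 42% of its energy from fat. The 4 groups of 5 mice were HFD control (corn oil), HFD + Aroclor (Aroclor 1260, a commercial mixture of mostly non-dioxin-like polychlorinated biphenyls, 20 mg/kg), HFD + PCB 126 (20 µg/kg of this dioxin-like PCB) and HFD + Aroclor + PCB 126 (each at its own dose). Exposure was 1 gavage after 2 weeks of the diet. The methods place the end 10 weeks later, while the labels give 12 weeks of treatment. No group on another diet was analysed here, so every value is for liver on the HFD.

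RNA polymerase II transcripts begin with a guanosine joined in reverse, the cap. RNMT methylates this guanosine. CMTR1 and CMTR2 then methylate the ribose of the first and the second transcribed nucleotide, and PCIF1 adds a methyl group to the base where the first nucleotide is an adenosine. TGS1 adds further methyl groups to the cap of small nuclear and nucleolar RNAs, which snurportin (SNUPN) binds to bring small nuclear ribonucleoproteins back into the nucleus. In the nucleus the cap is held by the cap-binding complex, of which NCBP1 is the large subunit. In the cytoplasm it is held by eIF4E, which starts cap-dependent translation, or by its relatives eIF4E2 (4EHP), a translational repressor, and eIF4E3. The table measures transcript levels of these proteins, not cap methylation or translation.

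The result of this gene set turned on 1 member of the eIF4E family, so the family is shown first by the codons that tell its members apart. eIF4E holds the methylated guanine between the side chains of a pair of tryptophans. Each line gives 51 coding bases of the mouse transcript, 5′ to 3′ (GENCODE M21, GRCm38), and the capitals mark the codon aligned with that of the upstream tryptophan of eIF4E.
Eif4e2: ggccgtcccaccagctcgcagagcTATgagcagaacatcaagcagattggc
Eif4e3: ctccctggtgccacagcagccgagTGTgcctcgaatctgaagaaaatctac
These stretches lie in exon 3 of *Eif4e2* (chr1:87220992-87221042, plus strand) and in exon 2 of *Eif4e3* (chr6:99651737-99651787, minus strand). The aligned codon encodes tyrosine in *Eif4e2* (codon 78) and cysteine in *Eif4e3* (codon 52), so *Eif4e3* has no aromatic residue there.

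The downstream tryptophan codon, marked in the same way (codon 124 of *Eif4e2* and codon 98 of *Eif4e3*), was present in all 3 genes.
Eif4e: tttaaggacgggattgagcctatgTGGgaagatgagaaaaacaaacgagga
Eif4e2: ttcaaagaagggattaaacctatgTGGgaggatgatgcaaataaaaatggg
Eif4e3: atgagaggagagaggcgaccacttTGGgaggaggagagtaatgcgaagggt
Each of these stretches spans an exon junction. The coding sequences hold 217 codons in *Eif4e*, 259 in *Eif4e2* and 207 in *Eif4e3*. The encoded residues matched those of *Eif4e* at 31.1% of 212 aligned positions in *Eif4e2* and at 30.3% of 198 aligned positions in *Eif4e3*.

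Libraries held from 21836506 to 36854887 counts. Transcript levels are given as CPM (counts relative to the TMM-scaled library size), with the mean ± SD of 5 mice. Changes are log2 fold changes (log2FC) ± SE from edgeR's quasi-likelihood test over all 20 libraries. A gene was called at a Benjamini-Hochberg adjusted p under 0.05 over the 15522 genes tested. The p-values of this report are adjusted ones from that test unless stated otherwise. *Cyp1a2*, which dioxin-like PCBs induce through the aryl hydrocarbon receptor, rose with PCB 126 (log2FC 2.04, adjusted p = 0.000294) and with the combined exposure (log2FC 1.00, adjusted p = 0.00325). *Cyp1a1* rose with PCB 126 (log2FC 6.93, adjusted p = 0.00950), where its level ranged from 4.09 to 314 CPM. With the combined exposure *Cyp1a1* had a log2FC of 1.06 (adjusted p = 0.502). *Tiparp* and *Ahrr*, also chosen to check the exposures, were not called with PCB 126 (log2FC 0.31, adjusted p = 0.739, and 0.31, adjusted p = 0.858). Nor were *Cyp2b10* (1.97, adjusted p = 0.222) and *Cyp2c55* (0.65, adjusted p = 0.488) with Aroclor. No gene of this check was called with Aroclor. Counts were also related to transcript GC content to a degree that varied between libraries. The slope of log2 CPM, centred on each gene, per 10 percentage points of GC was 0.263 ± 0.192 in HFD control and −0.393 ± 0.214 with the combined exposure, a difference of −0.656 (exact permutation test, two-sided p = 0.00794, the smallest that 252 splits allow). Against HFD control, the slope differed by −0.253 with Aroclor (exact permutation p = 0.0397) and by −0.143 with PCB 126 (exact permutation p = 0.294). Changes are therefore also given after a GC correction of each library.

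All 10 genes were detected in every library. On the per-length scale (FPKM, computed from the CPM and the exonic length), which allows levels of different genes to be compared, *Ncbp1* was the highest in HFD control at 9.23 ± 0.692 FPKM. It was followed by *Snupn* (7.13), *Eif4e2* (7.09), *Eif4e* (5.67), *Eif4e3* (3.88), *Tgs1* (2.80), *Pcif1* (2.71), *Rnmt* (2.32), *Cmtr1* (0.942) and *Cmtr2* (0.548 FPKM). The ranges over the 5 control mice did not overlap between *Ncbp1* and *Snupn*, *Eif4e2* and *Eif4e*, *Rnmt* and *Cmtr1*, or *Cmtr1* and *Cmtr2*. The other neighbours in this order overlapped. *Cmtr2* had as few as 42 counts in a library, so its values are the least precise of the set, while *Eif4e2* had at least 1009. Over all 20 mice the highest level was 3.47 times the lowest for *Eif4e3*, and from 1.28 times (*Ncbp1*) to 2.11 times (*Pcif1*) for the other 9 genes.

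**Figure D1:**
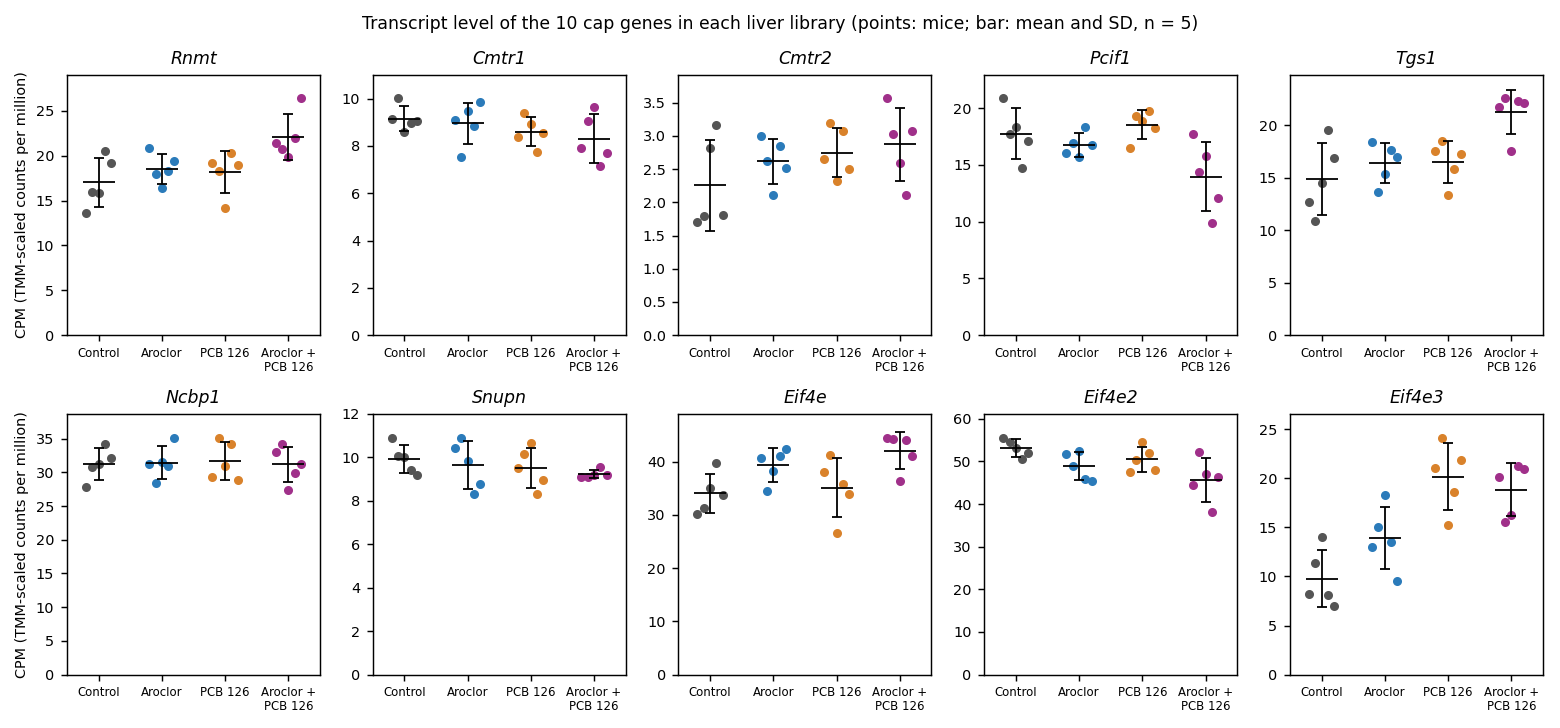
Level of each of the 10 genes in CPM (y axis, starting at 0, scale set per gene) in the 4 exposure groups. Points are single mice, and the bar and whiskers are the mean and SD of 5 mice. For *Eif4e3* the PCB 126 mice (15.2 to 24.2 CPM) and the combined mice (15.6 to 21.3 CPM) all sit above the highest control mouse (14.0 CPM).

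With PCB 126, *Eif4e3* was the member called, and it rose about 2-fold. Its level in the HFD control mice was 8.18, 11.4, 14.0, 8.16 and 6.97 CPM (9.75 ± 2.91). In the PCB 126 mice it was 21.1, 24.2, 15.2, 18.6 and 21.9 CPM (20.2 ± 3.42). The groups did not overlap, with the lowest PCB 126 mouse just above the highest control mouse. The log2FC was 1.05 ± 0.187 (2.07-fold, adjusted p = 0.0255), and it was 0.95 after the GC correction (adjusted p = 0.0319). *Eif4e3* ranked 9th by p among the 18 genes called with PCB 126, which are 0.116% of the genes tested. Groups without overlap in CPM were found for 1 of the 10 members, against 2.14% of all genes tested.

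The size of the *Eif4e3* change with PCB 126 was steadier than its call. With any 1 mouse left out, the log2FC stayed between 0.95 and 1.21, and the adjusted p was under 0.05 in 15 of 20 cases. The call was lost without PCB 126 replicate 1 (log2FC 1.03, adjusted p = 0.0526), replicate 2 (0.98, adjusted p = 0.0869) or replicate 5 (1.02, adjusted p = 0.0797), and without control replicate 4 (0.99, adjusted p = 0.0608) or replicate 5 (0.95, adjusted p = 0.0850). It was also lost when the fit held the HFD control and PCB 126 libraries alone, with a log2FC of 1.05 and adjusted p = 0.151.

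In the mice given both PCB preparations *Eif4e3* was again higher than in HFD control, at 20.2, 15.6, 16.2, 21.3 and 20.9 CPM (18.8 ± 2.71). Here too every exposed mouse was above every control mouse. The log2FC was 0.95 ± 0.187 (1.93-fold, adjusted p = 0.00148). It fell to 0.61 after the GC correction and remained called (adjusted p = 0.0418). This call held with each of the 20 mice left out in turn and in all 9 alternative analyses. The combined group differed little from PCB 126 alone (log2FC −0.10 ± 0.184, adjusted p = 0.721).

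With Aroclor alone *Eif4e3* was at 13, 15.1, 18.3, 13.5 and 9.56 CPM (13.9 ± 3.17), between the control and PCB 126 means and overlapping both groups. Its log2FC of 0.51 ± 0.186 did not pass the test (adjusted p = 0.215, unadjusted p = 0.0126). Combined exposure against Aroclor gave a log2FC of 0.44 (adjusted p = 0.164). The interaction, which asks whether the change with both preparations differed from the sum of the single changes, was −0.61 ± 0.261 for *Eif4e3* (adjusted p = 0.374, unadjusted p = 0.0302). This departure from a sum of the log2 changes therefore did not pass the adjusted threshold.

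The place of *Eif4e3* in its family changed on the per-length scale but not in CPM. In CPM it was the lowest of the 3 members in every group (20.2 with PCB 126, against 35.1 for *Eif4e* and 50.5 for *Eif4e2*). The per-length scale divides by all annotated exonic bases, which are 2515 in *Eif4e3*, 6008 in *Eif4e* and 7497 in *Eif4e2*. Which isoforms the liver held was not determined. On the per-length scale *Eif4e3* was the lowest of the 3 family members in HFD control at 3.88 ± 1.16 FPKM. In the PCB 126 group it averaged 8.03 ± 1.36 FPKM, against 5.85 ± 0.917 for *Eif4e* and 6.74 ± 0.387 for *Eif4e2*. Its share of the summed FPKM of the 3 genes was 23.0% ± 5.16 in HFD control, 29.5% ± 4.92 with Aroclor, 38.7% ± 3.38 with PCB 126 and 36.3% ± 4.12 with the combined exposure. The ranges of the control (18.1 to 30.2%) and PCB 126 (34.1 to 42.0%) shares did not overlap. These shares restate the levels and were not tested.

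**Figure D2:**
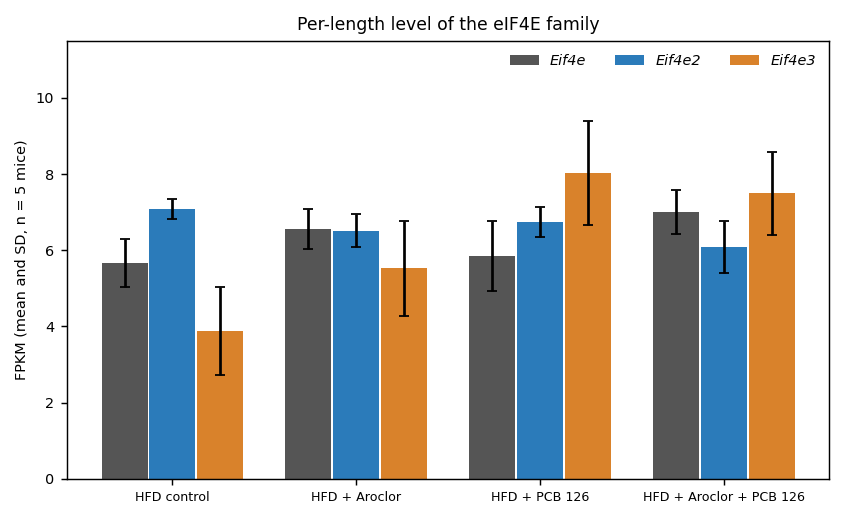
Per-length level (y axis, FPKM, mean and SD of 5 mice) of *Eif4e*, *Eif4e2* and *Eif4e3* in the 4 groups (x axis). *Eif4e3* is the lowest bar in HFD control (3.88 FPKM) and the highest with PCB 126 (8.03 FPKM), while *Eif4e2* is the highest in HFD control (7.09 FPKM) and the lowest with the combined exposure (6.09 FPKM).

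*Eif4e3* (ENSMUSG00000093661) lies on the minus strand of chromosome 6 (chr6:99625135-99666771, GRCm38). It shares 373 exonic bases with *Gm20696* on the same strand, a gene that held 1 to 6 counts per library, so reads from the shared bases may have gone to either gene or to none. The genes with the most similar course over the 20 libraries, by the root mean square difference of centred log2 CPM among 11342 genes, were *Mpv17l* (0.265), *Msmo1* (0.272) and *Cdcp1* (0.301), against a median of 0.581 over all genes. *Mpv17l* encodes a peroxisomal and mitochondrial membrane protein, and *Cdcp1* a transmembrane glycoprotein. They were called with PCB 126 (log2FC 0.87, adjusted p = 0.0255, and 1.17, adjusted p = 0.00341). *Msmo1*, a sterol synthesis enzyme, had a log2FC of 0.69 with PCB 126 (adjusted p = 0.0548). Genes matched to *Eif4e3* over libraries that include these groups tend to share its changes by that choice. Their values are therefore not separate evidence.

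The combined exposure was the comparison in which most members were called. *Rnmt*, *Tgs1*, *Eif4e* and *Eif4e3* rose and *Pcif1* and *Eif4e2* fell, 6 of 10 members where 32.8% of all genes tested were called. The median log2FC of the 10 members was 0.15, against −0.00096 over all genes. These medians were −0.011 and −0.021 after the GC correction. Among the 6, *Eif4e3* alone had groups without overlap, as did 18.8% of all genes. After the GC correction *Eif4e3* was the member still called, with 9.42% of all genes called.

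**Figure D3:**
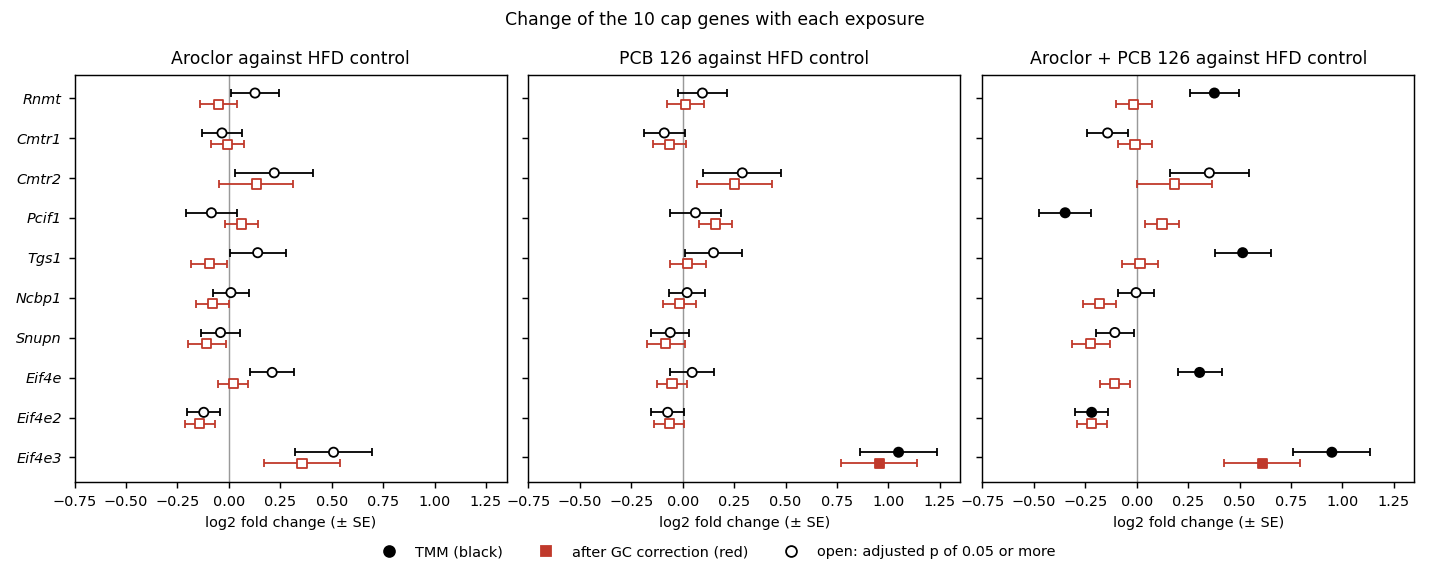
log2 fold change ± SE of the 10 genes (rows) with Aroclor, PCB 126 and both (panels), as TMM-scaled counts (black circles) and after the GC correction (red squares). Filled symbols have an adjusted p under 0.05. *Eif4e3* is filled in black and red with PCB 126 (1.05 and 0.95) and with both (0.95 and 0.61), while the black calls of *Rnmt*, *Tgs1*, *Eif4e* and *Pcif1* with both have red values from −0.11 to 0.12.

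Among the cap methyltransferases, *Rnmt* was at 13.7, 15.9, 15.9, 20.5 and 19.1 CPM in HFD control (17.0 ± 2.76). In the combined group it was at 21.4, 20.8, 19.8, 22 and 26.4 CPM (22.1 ± 2.55). The groups overlapped by control replicate 4, which lay within the range of the exposed mice. The log2FC was 0.38 ± 0.119 (adjusted p = 0.0197), and −0.014 after the GC correction (adjusted p = 0.957). The call was lost without control replicate 1 (0.31, adjusted p = 0.0626) or 2 (0.34, adjusted p = 0.0604) and without combined replicate 4 (0.33, adjusted p = 0.0595) or 5 (0.31, adjusted p = 0.0709).

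*Tgs1*, the trimethylguanosine synthase, also rose with the combined exposure before the GC correction. It was at 12.7, 10.9, 14.5, 19.5 and 16.9 CPM in HFD control (14.9 ± 3.40). In the combined group it was at 21.7, 22.6, 17.6, 22.3 and 22.1 CPM (21.3 ± 2.09). Apart from replicate 3, the exposed mice were above all controls and within 1 CPM of each other. The log2FC was 0.52 ± 0.136 (adjusted p = 0.00724) and was called with each of the 20 mice left out. After the GC correction it was 0.016 (adjusted p = 0.949).

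*Pcif1*, the writer of the methyl group on a first-position adenosine, went the other way. Its levels were 20.9, 17.7, 18.4, 14.7 and 17.1 CPM in HFD control (17.7 ± 2.23) and 17.7, 14.4, 15.8, 9.89 and 12.1 CPM with the combined exposure (14.0 ± 3.07). The lowest exposed mice were replicates 4 and 5, and the groups overlapped. *Pcif1* had a log2FC of −0.35 ± 0.126 (adjusted p = 0.0390), and 0.12 after the GC correction (adjusted p = 0.373). Leaving out control replicate 1 (−0.28, adjusted p = 0.113), 2 (−0.37, adjusted p = 0.0540) or 3 (−0.34, adjusted p = 0.0676), or combined replicate 2 (−0.36, adjusted p = 0.0561), 4 (−0.30, adjusted p = 0.0602) or 5 (−0.30, adjusted p = 0.105), ended the call.

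*Pcif1* was also the member called between the combined exposure and PCB 126 alone, a comparison in which 16.7% of all genes were called. Its level with PCB 126 alone was 16.5, 19.3, 18.9, 19.7 and 18.3 CPM (18.5 ± 1.26), a log2FC of −0.41 ± 0.126 for the combined group against it (adjusted p = 0.0338). After the GC correction the difference was −0.036 (adjusted p = 0.837). The call was also lost when the fit held the compared groups alone (−0.43, adjusted p = 0.0558). Without 1 of combined replicates 2, 4 and 5 or PCB 126 replicates 2, 3 and 4, the adjusted p lay between 0.0513 and 0.0912. Between the combined exposure and Aroclor alone, 0 of 10 members were called (4 at an unadjusted p under 0.05, 0 by DESeq2), as against 0.412% of all genes.

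The cap ribose methyltransferases were not called in any comparison with HFD control. *Cmtr1* averaged 9.15 ± 0.529 CPM in HFD control and 8.30 ± 1.03 with the combined exposure (log2FC −0.14 ± 0.0989, adjusted p = 0.295, and −0.0085 after the GC correction). *Cmtr2* averaged 2.26 ± 0.682 and 2.87 ± 0.550 CPM (log2FC 0.35 ± 0.191, adjusted p = 0.167, and 0.19 after the GC correction), and was called without control replicate 4 (0.50, adjusted p = 0.0406). That control mouse had the highest *Cmtr2* level of its group, 3.16 CPM. *Cmtr1* shares 3390 exonic bases with *Gm28043* on the same strand, which held 6 to 32 counts per library, so part of its reads may be assigned elsewhere.

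Of the cap-binding proteins, *Eif4e* was at 30.3, 31.4, 35.0, 39.8 and 33.8 CPM in HFD control (34.0 ± 3.73), and in the combined group at 44.5, 44.3, 36.4, 44.1 and 41.1 CPM (42.1 ± 3.46). All exposed mice except replicate 3 were above all controls. The log2FC was 0.31 ± 0.107 (adjusted p = 0.0340), and −0.11 after the GC correction (adjusted p = 0.405). In 11 of 20 cases it was called with 1 mouse left out. Without control replicate 1, 2 or 5, Aroclor replicate 4 or 5, or combined replicate 1, 2, 4 or 5, the log2FC was 0.24 to 0.31 and the adjusted p 0.0544 to 0.113.

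*Eif4e2*, the repressor of the family, fell slightly. Its level was 55.6, 54.6, 53.0, 50.6 and 52.0 CPM in HFD control (53.2 ± 2.00) and 44.4, 52.3, 47.1, 38.2 and 46.4 CPM with the combined exposure (45.7 ± 5.10). Apart from replicate 2, the exposed mice were below all controls. The log2FC was −0.22 ± 0.0814 (adjusted p = 0.0441). It was −0.22 after the GC correction (adjusted p = 0.0637) and −0.27 when gene length was corrected as well (adjusted p = 0.0466), so the size held while p moved around the threshold. Single omissions kept the log2FC at −0.20 to −0.23 in the 10 cases that lost the call (adjusted p 0.0503 to 0.0941), which were control replicates 1, 2, 3 and 5, PCB 126 replicates 2, 4 and 5 and combined replicates 1, 4 and 5. The fit of the compared groups alone also ended the calls of *Eif4e2* (−0.23, adjusted p = 0.0863) and *Pcif1* (−0.36, adjusted p = 0.102) with the combined exposure.

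*Ncbp1* and *Snupn* were not called in any comparison with HFD control. *Ncbp1* averaged 31.3 ± 2.34 CPM in HFD control, 31.5 ± 2.42 with Aroclor, 31.7 ± 2.87 with PCB 126 and 31.2 ± 2.64 with the combined exposure. Its log2FC with the combined exposure was −0.0029 ± 0.0868 (adjusted p = 0.985), and its sign in each comparison with HFD control depended on the processing. After the GC correction it was −0.18 ± 0.0809 (adjusted p = 0.166). *Snupn* averaged 9.92 ± 0.658, 9.65 ± 1.09, 9.51 ± 0.940 and 9.22 ± 0.197 CPM in the same order, with a log2FC of −0.11 ± 0.0930 for the combined exposure (adjusted p = 0.418), and −0.22 ± 0.0921 after the GC correction (adjusted p = 0.133). For these genes the group means in CPM, before that correction, differed by less than the spread between mice in HFD control, except for *Snupn* with the combined exposure, whose difference of group means was slightly larger.

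Several members moved in the direction of other genes of like GC content with the combined exposure. *Tgs1* (41.2% GC), *Eif4e* (43.1%) and *Rnmt* (43.4%) fall in the range from 40 to 45%. The median log2FC of its 2905 genes was 0.42, and 43.7% of them were called higher. *Pcif1* (56.6%) falls in the range from 55% up, in which the median of 3666 genes was −0.56 and 44.95% were called lower. *Eif4e3* (45.05%) lies at the lower edge of the range from 45 to 50%. The median of that range was 0.17, and 17.6% of its genes were called higher. *Eif4e2* (50.5%) and *Cmtr1* (52.4%) fall between 50 and 55%, with a median of −0.17. After the GC correction, whose construction removes the relation to GC, the medians of all ranges lay between −0.026 and −0.010. Library index runs through the groups in order and the sequencing run of each library is not named, so exposure cannot be told apart from the order of the libraries.

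**Figure D4:**
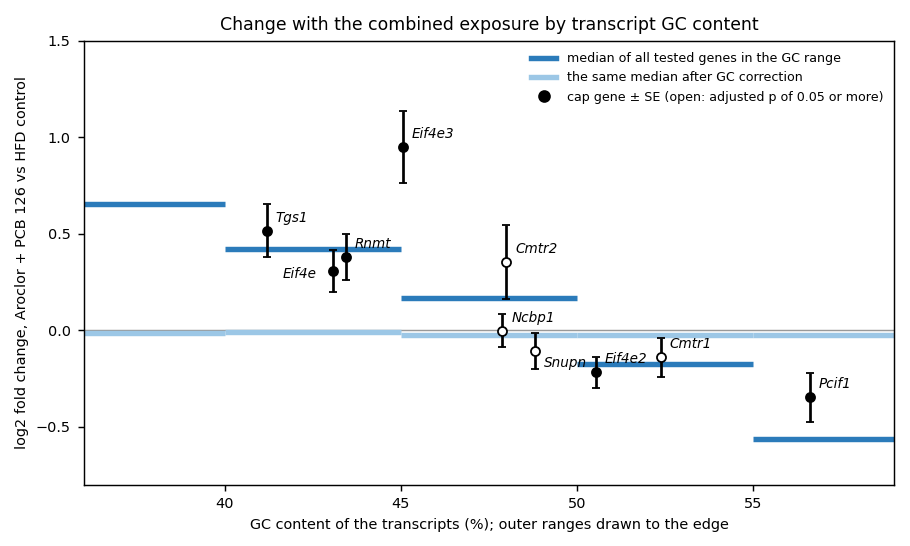
log2 fold change ± SE of the 10 genes with the combined exposure (y axis) by the GC content of their transcripts in percent (x axis). Filled points have an adjusted p under 0.05, and horizontal bars are medians of all tested genes in 5 GC ranges before (dark) and after (light) the GC correction. *Rnmt*, *Tgs1* and *Eif4e* lie near the dark bar of their range (0.42), while *Eif4e3*, at 0.95, lies above the bars on both sides of it (0.42 and 0.17).

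With the single exposures the other 9 genes changed little. With Aroclor 0 of 10 members were called by edgeR (1 at an unadjusted p under 0.05, 0 by DESeq2), as were 0% of all genes, and no member had groups without overlap, against 2.94% of all genes. Apart from *Eif4e3*, log2FC with Aroclor ranged from −0.12 (*Eif4e2*) to 0.22 (*Cmtr2*), and with PCB 126 from −0.09 (*Cmtr1*) to 0.29 (*Cmtr2*). The medians over the 10 members were 0.069 with Aroclor and 0.054 with PCB 126, against −0.013 and −0.018 over all genes. No member was called for the interaction (0 of 10, 1 at an unadjusted p under 0.05, 0 by DESeq2), as were 0% of all genes. The 3 comparisons with HFD control share the control mice, and those with high or low values enter all 3.

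The 36 partner genes of the cap pathway were called in 0 cases with Aroclor (9 at an unadjusted p under 0.05) and in 0 cases with PCB 126 (2 at an unadjusted p under 0.05). With the combined exposure 18 were called, 7 higher and 11 lower, with a list median log2FC of −0.034, where 32.8% of all genes were called. By role, these were 4 of 4 genes listed under capping and cap completion (*Rngtt*, *Ramac* and *Dhx15* higher, *Mepce* lower). They were also 2 of 5 nuclear cap-binding genes (both lower) and 1 of 3 of the snurportin import route (higher). The rest were 6 of 14 of eIF4F and its regulators (2 higher) and 5 of 9 decapping genes (1 higher). The demethylase gene *Fto* was not called. After the GC correction 3 of the 36 were called, where 9.42% of all genes were. They were 2 of 9 decapping genes and 1 of 14 of eIF4F and its regulators, with 0 of 4 under capping and cap completion.

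The partners with the lowest p were all lower with the combined exposure. *Dxo*, a decapping exonuclease that removes incomplete caps, fell from 14.6 ± 2.39 to 7.47 ± 1.60 CPM (log2FC −0.97, adjusted p = 0.00104), and its change was −0.31 after the GC correction (adjusted p = 0.0477). *Eif4ebp1*, which encodes the protein that binds eIF4E and blocks its joining to eIF4G, fell from 33.2 ± 3.05 to 20.8 ± 4.00 CPM (log2FC −0.68, adjusted p = 0.00359). Its change was of the same size after the GC correction (−0.72, adjusted p = 0.0119). With PCB 126 alone, *Eif4ebp1* had a log2FC of 0.013 (adjusted p = 0.983). With Aroclor alone it was −0.27 (adjusted p = 0.374), and −0.30 after the GC correction (adjusted p = 0.393).

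The other partners named by rank were *Mepce* (−0.75, adjusted p = 0.00122), which caps the small nuclear RNA of the 7SK particle, the decapping scaffold *Edc4* (−0.73, adjusted p = 0.00198), the eIF4E kinase *Mknk2* (−0.83, adjusted p = 0.00320) and the decapping enzyme *Nudt3* (−0.45, adjusted p = 0.00521). None of these was called after the GC correction. The third partner called after that correction was the decapping enzyme *Nudt16* (0.54, adjusted p = 0.0238; 0.12, adjusted p = 0.532 before it), which is named here after its values were seen.

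In bulk liver, fewer cells of a type and less RNA per cell cannot be told apart. Hepatocyte markers summed to between 69078 and 100280 CPM in every library, so the tissue matched its label. Of 31 markers of 7 liver cell types, 30 were tested and none was at 0 in a library. With Aroclor and with PCB 126, 0 were called. With the combined exposure 8 of the 30 were called, where 32.8% of all genes were: the hepatocyte markers *Apoa1*, *Ttr* and *Serpina1c* (lower), *Adgre1* of macrophages (higher), *Stab2* of sinusoidal endothelium (lower) and *Lrat*, *Reln* (higher) and *Des* (lower) of stellate cells. The summed macrophage markers were at 170 to 393 CPM in HFD control and 222 to 307 CPM with the combined exposure, and those of stellate cells at 57.6 to 135 and 103 to 156 CPM. Their part in the member changes was not tested. With PCB 126, the macrophage (116 to 321 CPM) and stellate (72.3 to 148 CPM) sums overlapped HFD control. So did the endothelial sums (78.5 to 137 CPM against 82.9 to 170 CPM in HFD control). Hepatocyte sums overlapped as well (70565 to 82448 CPM against 78519 to 86896 CPM in HFD control), as did cholangiocyte, lymphocyte and neutrophil sums. Overlap of ranges is a coarse comparison, and the part of cell types in the *Eif4e3* change was not tested.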

How the data were processed

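Liver RNA of 20 mice in 4 groups was sequenced. Per the labels and methods, the authors prepared stranded TruSeq libraries of polyadenylated RNA, sequenced them in 2 runs, checked reads with FastQC 0.10.1, did not trim them, aligned them with STAR 2.6 to GRCm38.p6 and used HTSeq 0.10.0 to count reads per gene. The deposited values are raw counts. The annotation release and strand setting of the counting are not given in the sources used here, so reads of overlapping genes may be split or lost. *Pcif1*, *Ncbp1* and *Cmtr1* overlap exons of genes on the opposite strand.

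Counts were tested in R 4.3.3 with edgeR 4.0.16 (TMM, glmQLFit and glmQLFTest, 4 group coefficients, 16 residual degrees of freedom, minimum total of 10 counts per gene), as depth ranged from 21836506 to 36854887. Of 21780 rows, 21754 matched GENCODE M21, which gave symbols, exonic lengths and GC content. For the GC correction, each library's deviation from the gene means was smoothed over GC (spline, 6 degrees of freedom) and used as an offset. Alternatives were other size factors, DESeq2 1.42.0 (the study's tool), no or an FPKM filter (1 FPKM in 3 libraries), the compared groups alone, a replicate block, GC and length corrections, and each mouse left out. The fit was tested on simulated counts that held no GC trend, so that test cannot judge how the GC correction handles one. Same-group libraries differed beyond sampling noise (chi-square over its degrees of freedom 18.7 or more in 40 pairs). The labels number mice within groups, and p-values measure the spread between these mice. The label of PCB 126 replicate 2 carries another number in its second part, and its title was followed. The members, partner genes (at most the 6 with the lowest adjusted p named per comparison), markers and the rule of similar course (the 3 nearest genes of a member called with a single exposure, among those with a mean of at least 1 CPM) were chosen with earlier results of these data known. A further stretch of the coding sequence of *Eif4e* is not reported here.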

Additional observations from a re-analysis of the deposited data

Results flagged for a closer look

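Among 40 sets of 5 mice (10 genes in 4 groups), 2 held a mouse far from the other 4 by Dixon's criterion, which chance meets in about 1 of 20 sets. *Tgs1* in replicate 3 of HFD + Aroclor + PCB 126 was at 17.6 CPM, while the others were at 21.7 to 22.6 CPM, a gap of 0.834 of the range. *Snupn* in replicate 4 of the same group was at 9.56 CPM, while the others were at 9.07 to 9.20 CPM, a gap of 0.736 of the range.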

How the results depend on the processing

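Of 893 alternative values of the named genes, 792 kept their direction and side of the threshold, 51 lost and 1 gained a call, and 49 changed sign (10 of them of a call). Causes were not tested. The GC corrections remove the relation to GC by construction, whatever its source, and so do not test a cause either. *Cmtr1* and *Cmtr2* have no value under the FPKM filter.

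With the combined exposure, the GC correction, the GC and length correction and the replicate block with GC correction turned *Rnmt* (−0.014, −0.061 and −0.013), *Pcif1* (0.12, 0.086 and 0.12) and *Eif4e* (−0.11, −0.13 and −0.11), and *Tgs1* reached −7.95e-05 under the second. Members called numbered 1, 2 and 1 in that order, partner genes 3, 3 and 3, and all genes 1462, 1551 and 1501. With Aroclor the same 3 settings turned *Rnmt* (−0.050, −0.079 and −0.047), *Pcif1* (0.062, 0.036 and 0.060), *Tgs1* (−0.095, −0.11 and −0.091) and *Ncbp1* (−0.080, −0.073 and −0.079), and the second turned *Eif4e* (−0.00041). With PCB 126 they turned *Ncbp1* (−0.016, −0.014 and −0.017) and *Eif4e* (−0.053, −0.061 and −0.054). *Ncbp1* also turned with Aroclor under RLE size factors (−0.015), no filter (−0.011), the FPKM filter (−0.0034), the compared groups alone (−0.0011) and DESeq2 (−0.013), and under the FPKM filter with PCB 126 (−0.0041) and with the combined exposure (0.0095). With 1 mouse left out, *Cmtr1* turned with Aroclor (−0.091 to 0.023), *Ncbp1* with Aroclor (−0.054 to 0.045), PCB 126 (−0.019 to 0.056) and both (−0.054 to 0.032), and *Eif4e* with PCB 126 (−0.019 to 0.13).

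Members called with PCB 126 fell to 0 with the compared groups alone. Against PCB 126 alone, members called with the combined exposure numbered 4 under the FPKM filter and 2 by DESeq2, and 0 under the GC correction, the GC and length correction and the block with GC correction, where all genes called numbered 0, 72 and 209. All genes called with Aroclor numbered 26 with the replicate block, 20 with the block and GC correction and 135 by DESeq2. With PCB 126 they numbered 47 under the FPKM filter, 101 with the block, 51 under the GC correction, 88 under the GC and length correction, 115 with the block and GC correction, 4 with the compared groups alone and 320 by DESeq2. Against Aroclor alone, the combined exposure gave 107 with RLE size factors, 13 with no filter, 636 under the FPKM filter, 475 with the block, 6 under the GC correction, 14 under the GC and length correction, 0 with the compared groups alone and 1343 by DESeq2. The interaction gave 38 with the block, 38 with the block and GC correction and 1 by DESeq2.

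Leaving out 1 mouse, members called ranged from 0 to 1 with PCB 126, from 2 to 7 with both (2 without control replicate 1 or 2 or combined replicate 4 or 5) and from 0 to 2 between both and PCB 126 (2 without control replicate 4 or combined replicate 3). Partner genes called with both ranged from 14 to 21. All genes called ranged from 0 to 2 with Aroclor, 4 (without PCB 126 replicate 2) to 127 (without PCB 126 replicate 3) with PCB 126, 3894 to 5679 with both, 0 to 1036 (without combined replicate 3) for both against Aroclor and 4 (without PCB 126 replicate 3) to 3416 for both against PCB 126. Same-numbered mice of different groups are different animals, and the labels name no pairing. Their deviations from the group means had a median r of 0.029 (from −0.315 to 0.550 over 30 pairs, 12 over 0.1). The median over the 120 other pairs was −0.011. Whether mice of some numbers share a batch was not tested. The block moved no count of members called.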
